A study of Mus musculus with 15 samples.

Results

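Calcium phosphate (CaP) microrods were compared with medium alone (M0) in MH-S cells, a mouse alveolar macrophage line immortalised with SV40, and the genes that CaP microrods lowered or raised were followed across the genome. The comparison sets 3 CaP against 3 M0 libraries, 6 of the 15 RNA-seq libraries of the series, in a fit of 9 libraries in which 3 SiO2 libraries add to the estimate of spread, and covers the 16621 of 78317 gene identifiers that passed a filter on low counts. CaP cells received CaP-Alg-Prot/CMC rods, nanoparticles held by alginate and coated with protamine and carboxymethyl chitosan, at 0.1 mg/mL for 24 h. SiO2 cells received silica rods of the same build and mass concentration, M1 cells LPS at 1 µg/mL with IFN-γ at 20 ng/mL, M2 cells IL-4 at 20 ng/mL, and M0 cells medium only, each in 3 wells. The paper states that equal mass concentrations of both rod types hold different numbers of rods, because their densities differ. Every well of rods held its own particle batch, but all wells held 1 passage of a single transformed line, so p-values measure the spread between wells and batches and not between animals or passages.

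Macrophages in the lung take up particles into phagosomes, which fuse with lysosomes and are acidified by the vacuolar ATPase. Resident macrophages make C1q, the recognition protein of the classical complement pathway, and carry receptors for complement fragments, chemokines, lectins and nucleotides with which they survey the tissue. A rise in cytosolic calcium activates the phosphatase calcineurin, which sends NFAT factors to the nucleus, and Rcan1 is an inhibitor of calcineurin whose gene is itself an NFAT target. Activated macrophages secrete CC chemokines, and the stress of a particle load is known to engage lysosomal, hypoxia-type and unfolded protein programmes.

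The cells were macrophage-like by their markers, and genes of alveolar macrophage identity were partly expressed. All 13 macrophage markers were tested, and *Cd68* reached 934, 924 and 1119 CPM in M0 and 843, 881 and 790.1 CPM with CaP microrods. Of 32 alveolar identity genes, 18 passed the filter and 8 had no count in the 6 libraries, while *Siglecf* had 8 counts and *Car4* 1 in all 6 together. *Lpl*, for lipoprotein lipase, was abundant, with 444, 587 and 408 CPM in M0 and 625, 800.0 and 821 CPM with CaP microrods, and *Csf2rb*, a chain of the GM-CSF receptor, had 88.6, 79.3 and 94.5 CPM in M0 and 55.5, 66.6 and 59.4 CPM with CaP microrods. *Pparg*, the nuclear receptor that sets alveolar macrophage identity, was near the limit of detection with 0.614, 0.263 and 0.588 CPM in M0 and 0.665, 0.3996 and 0.328 CPM with CaP microrods. The 8 markers of T and NK cells summed to at most 0.174 CPM in any of the 6 libraries, the 8 of neutrophils to at most 0.677, the 8 of epithelium to at most 0.347 and the 9 of fibroblasts and endothelium to at most 1.21, and no epithelial, neutrophil or T and NK marker passed the filter. B cell markers ran to 193 CPM in M0 and 147 with CaP, nearly all of it *Ighm*. Total counts ran from 8459643 to 39201265 in M0, from 14632876 to 50729211 in CaP and from 12646926 to 24990730 in SiO2 libraries, and replicates of each group differed by more than sampling noise. Pairs of replicates were compared by a chi-square per gene against sampling alone, which also grows with depth. It was 39.5 to 117 in M0, 19.2 to 152 in CaP and 14.5 to 31.2 in SiO2 libraries. The p-values of CaP against M0 use a spread estimated over all 3 groups.

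CaP microrods lowered 20 genes and raised 48 by edgeR's quasi-likelihood test. A gene was called when its Benjamini-Hochberg adjusted p was below 0.05 and its absolute log2 fold change above 0.5, and such calls are the only ones described below as a rise or a fall. The calls were 0.409% of the genes tested, 0.12% for lowered and 0.289% for raised genes. Lowered genes fell by 1.03 to 3.15 on the log2 scale and raised genes rose by 0.89 to 4.70. At an unadjusted p below 0.05 there were 1571 genes on the lower side and 1414 on the higher side, and the median log2 fold change of all genes was 0.06. Of all genes tested, 44.8% had a negative log2 fold change. DESeq2, run beside edgeR on the same counts, called 307 genes lower (1.79% of 17154 tested) and 283 higher (1.65%), among them all 68 of edgeR. Every called gene had its 3 CaP libraries apart from its 3 M0 libraries, which was also so for 10.1% of all genes on the lower side and 7.32% on the higher side. Since whole wells were sequenced, a lower level can stem from less RNA per cell or from fewer cells that make it, and these cannot be told apart.

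**Figure D1:**
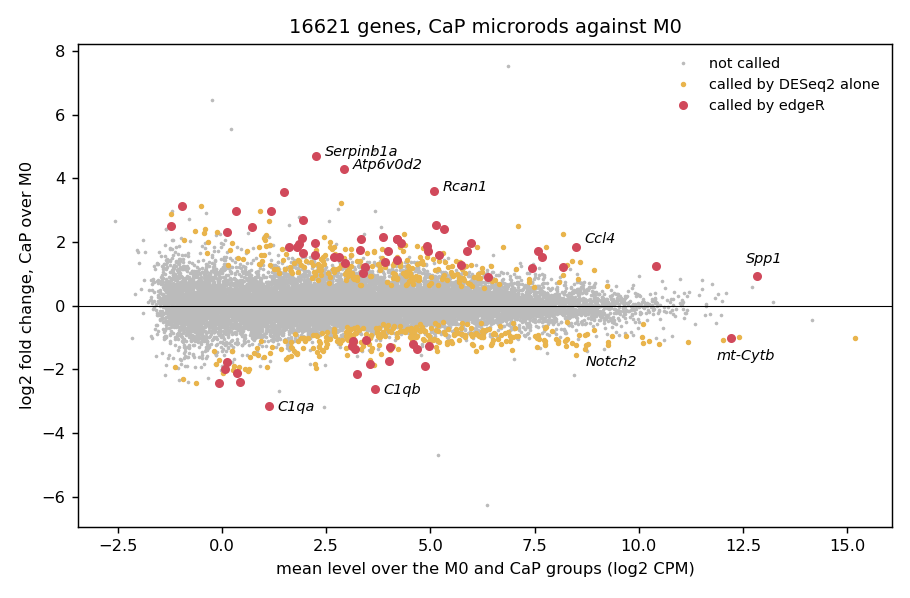
Log2 fold change of CaP over M0 (vertical axis) against the mean level over both groups (log2 CPM, horizontal axis) for the 16621 genes tested, 1 point per gene. The 68 genes called by edgeR are red, those called by DESeq2 alone are yellow, and the calls lie on both sides of 0, from C1qa at -3.15 to Serpinb1a at 4.70.

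The number of lowered genes depended on single libraries. Without M0 replicate 1 edgeR called 1 gene lower and 12 higher, without CaP replicate 3 it called 1 and 20, without M0 replicate 3 2 and 23, and without CaP replicate 2 3 and 22. Without CaP replicate 1, the deepest library, it called 215 lower and 528 higher, and without M0 replicate 2 219 and 123. *C1qb* was the only lowered gene called in all 6 of these fits, and 11 raised genes were. The highest adjusted p given below for leaving out a library is taken over these 6 fits alone. Leaving out an SiO2 library, which enters the fit through the filter, the scaling and the shared estimate of spread, left 4, 6 and 2 lowered genes. Losses of a call without an SiO2 library are named below only for some genes. With all 3 SiO2 libraries left out, edgeR called 7 genes higher and 0 lower. *C1qb* and some of the 11 raised genes thus lost their call in that fit. All 68 genes kept their sign in each of these fits. Since their CaP and M0 libraries do not overlap, leaving out a library could hardly reverse a sign, so this adds no support. M0 replicate 1 also had the highest share of counts on *Actb*, the gene of beta-actin, at 6.91% against 3.30% and 4.52% in the other M0 libraries and 1.79% to 3.21% with CaP, and the part of this in the calls was not tested.

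**Figure D2:**
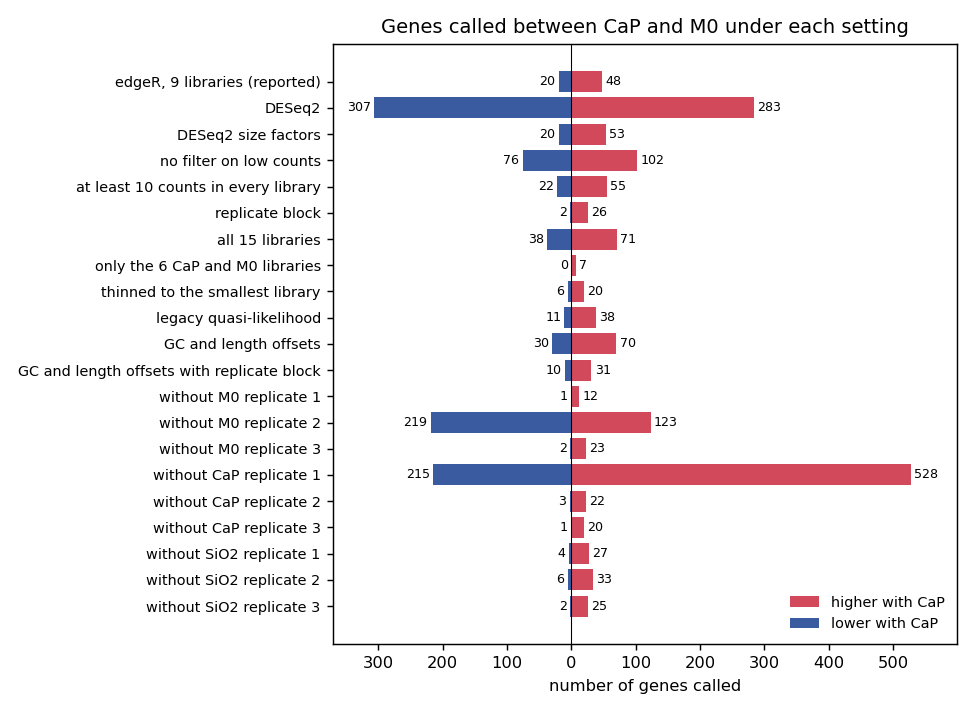
Number of genes called higher (red, to the right) and lower (blue, to the left) with CaP than in M0 under the reported fit and each alternative. The lower side ranges from 0 genes with only the 6 compared libraries to 307 with DESeq2.

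The sequences upstream of a few called genes are shown. *C1qb* and *C1qc* among the lowered and *Rcan1* among the raised were chosen as genes that carry the pattern. *Tgfbi* and *Aif1* were chosen because their windows hold an ISRE core, so its presence in them is no finding. *C1qa* is not shown. Each is the 250 bases before a RefSeq start on build GRCm38.p6, read along the gene's strand, and capitals mark a match on either strand to AP-1 (TGANTCA), the NFAT core (GGAAAA), the CLEAR-type E-box (CACGTG), the ISRE core of interferon-responsive genes or the ETS/PU.1 core (GAGGAAG). No matches overlap in the windows printed. *C1qb* (chr4:136886201-136886450, minus strand) has none of the 5, and *C1qc* (chr4:136892915-136893164, minus strand) has an ETS/PU.1 core 194 and an NFAT core 88 bases before the start.
C1qb: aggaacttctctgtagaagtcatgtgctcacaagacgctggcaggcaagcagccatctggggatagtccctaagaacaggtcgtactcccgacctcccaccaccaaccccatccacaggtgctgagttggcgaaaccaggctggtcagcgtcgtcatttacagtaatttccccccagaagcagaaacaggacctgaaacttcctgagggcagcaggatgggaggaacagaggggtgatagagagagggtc
C1qc: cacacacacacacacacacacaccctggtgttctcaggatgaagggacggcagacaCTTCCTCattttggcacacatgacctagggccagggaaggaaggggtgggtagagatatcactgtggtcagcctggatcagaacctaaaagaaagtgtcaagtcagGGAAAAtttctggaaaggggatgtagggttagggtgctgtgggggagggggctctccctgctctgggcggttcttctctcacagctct

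*Tgfbi* (chr13:56609336-56609585, plus strand) and *Aif1* (chr17:35176053-35176302, minus strand) each hold an ISRE core.
Tgfbi: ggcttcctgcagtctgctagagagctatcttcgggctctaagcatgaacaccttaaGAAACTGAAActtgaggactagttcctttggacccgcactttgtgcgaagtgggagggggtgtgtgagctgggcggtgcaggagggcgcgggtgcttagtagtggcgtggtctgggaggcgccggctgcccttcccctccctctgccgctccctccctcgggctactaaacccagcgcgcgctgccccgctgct
Aif1: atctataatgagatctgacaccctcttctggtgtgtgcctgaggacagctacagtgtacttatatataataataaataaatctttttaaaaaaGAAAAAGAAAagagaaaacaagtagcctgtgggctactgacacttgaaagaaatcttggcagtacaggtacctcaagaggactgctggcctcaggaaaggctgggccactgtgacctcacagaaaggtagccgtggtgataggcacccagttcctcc

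*Rcan1* has a pair of starts in RefSeq. The upstream one (chr16:92466170-92466419, minus strand) holds an E-box, and the downstream one (chr16:92400079-92400328, minus strand) holds an AP-1 match 110 bases and NFAT cores 193 and 228 bases before the start. The counts are per gene, so they do not show which start was used.
Rcan1: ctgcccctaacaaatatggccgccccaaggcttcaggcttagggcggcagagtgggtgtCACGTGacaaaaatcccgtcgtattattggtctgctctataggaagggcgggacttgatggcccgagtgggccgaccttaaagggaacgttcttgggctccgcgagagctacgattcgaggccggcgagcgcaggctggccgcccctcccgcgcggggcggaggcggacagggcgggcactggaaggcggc
Rcan1: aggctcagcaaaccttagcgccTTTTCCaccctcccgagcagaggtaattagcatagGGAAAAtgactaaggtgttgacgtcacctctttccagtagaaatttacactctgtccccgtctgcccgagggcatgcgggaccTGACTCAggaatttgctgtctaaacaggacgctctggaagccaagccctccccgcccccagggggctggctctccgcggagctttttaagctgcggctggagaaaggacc

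Promoters were found for 14 of the 20 lowered genes (16 windows) and 31 of the 48 raised genes (43 windows). The ISRE core lay in 3 of the 16 lowered windows (18.75%), those of *Aif1*, *Pilrb1* and *Tgfbi*, in 2.33% of raised windows and in 2.77% of the 11584 windows of all genes tested. The NFAT core was in 37.5% of lowered, 16.3% of raised and 18.8% of all windows, and in *Pilrb1* 1 of its matches overlaps the ISRE core. ETS/PU.1 cores were in 25.0%, 20.9% and 11.1%, E-boxes in 6.25%, 11.6% and 8.49%, and AP-1 matches in 0%, 9.30% and 4.42%. These shares are descriptions of small sets, and no test was run on them.

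The lowered genes were led by C1q. All 3 genes of its subunits fell, and they lie next to each other on chromosome 4 in the order *C1qb*, *C1qc* and *C1qa*, with no other tested gene between neighbours. *C1qb*, for the B chain, had 13.5, 27.1 and 24.7 CPM in M0 and 3.24, 3.33 and 4.04 CPM with CaP microrods (log2 fold change -2.60, standard error 0.30, adjusted p = 0.00751). *C1qa*, for the A chain, had 2.27, 6.52 and 2.82 CPM in M0 and 0.312, 0.733 and 0.404 CPM with CaP microrods (log2 fold change -3.15, standard error 0.52, adjusted p = 0.0419), under 1 CPM in each CaP library. *C1qc*, for the C chain, had 1.71, 3.09 and 2.12 CPM in M0 and 0.561, 0.1998 and 0.378 CPM with CaP microrods (log2 fold change -2.39, standard error 0.36, adjusted p = 0.0307). In all 3 genes M0 replicate 2 was the highest library and every CaP library lay below every M0 library. *C1qb* was called with each of the 9 libraries left out, but not with only the 6 compared libraries. Its adjusted p was at most 0.0452 in the fits without an M0 or CaP library. *C1qa* and *C1qc* were called only in the full fit and without M0 replicate 2 or CaP replicate 1. Their adjusted p rose to 0.257 and 0.199 in the fits without another M0 or CaP library.

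No other gene of the complement list was called by edgeR. Of 20 in the list, 12 were tested, 3 fell, none rose and 8 had a negative log2 fold change, with a median of -0.68 against 0.06 over all genes. DESeq2 called 5 lower, which beside C1q included *Itgam*, the alpha chain of complement receptor 3, at 38.5, 29.04 and 33.3 against 17.6, 19.5 and 14.05 CPM (log2 -0.99, adjusted p = 0.0869 from edgeR, 0.00394 from DESeq2). *Itgax*, the alpha chain of complement receptor 4, went the other way with 2.08, 2.502 and 3.06 against 3.43, 4.995 and 4.54 CPM (log2 0.80, adjusted p = 0.212 from edgeR). Among scavenger and efferocytosis receptors, 11 of 24 were tested, none was called by edgeR and DESeq2 called 3 lower and 1 higher.

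Receptors for a chemokine and a complement fragment fell as well. *Ccr2*, the receptor by which monocytes follow Ccl2 and Ccl7, had 17.3, 11.9 and 16.6 CPM in M0 and 2.204, 5.39 and 3.28 CPM with CaP microrods (log2 fold change -2.14, standard error 0.32, adjusted p = 0.0274). *C5ar2*, a second receptor for the complement fragment C5a, had 63.6, 31.6 and 43.02 CPM in M0 and 13.5, 15.5 and 8.37 CPM with CaP microrods (log2 fold change -1.90, standard error 0.30, adjusted p = 0.0322), with the highest M0 value in replicate 1. *Ptafr*, the receptor of platelet-activating factor, had 27.9, 17.1 and 25.98 against 11.2, 9.59 and 6.63 CPM and was called by DESeq2 (adjusted p = 0.00131) and not by edgeR (log2 -1.38, adjusted p = 0.0728). *Ccrl2*, a chemerin-binding receptor without known signalling, was higher at 0.694, 1.58 and 1.76 against 3.47, 4.06 and 4.69 CPM and likewise called by DESeq2 alone (adjusted p = 0.00262). Of the 20 receptors in the list 12 were tested, 2 fell and none rose by edgeR, and the median log2 fold change was -0.51. The call of *Ccr2* was lost without M0 replicate 1 or 3, CaP replicate 3 or any SiO2 library. That of *C5ar2* was lost without any library but M0 replicate 2 or CaP replicate 1. In the fits without an M0 or CaP library their adjusted p rose to 0.173 and 0.163.

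Several lowered genes belong to the surface and signalling apparatus of tissue macrophages. *Aif1*, for the actin-binding protein Iba1 of phagocytic cups, had 22.4, 24.6 and 27.5 CPM in M0 and 9.77, 6.19 and 5.93 CPM with CaP microrods (log2 fold change -1.75, standard error 0.24, adjusted p = 0.0174). *P2ry12*, an ADP receptor best known from microglia, had 1.601, 2.04 and 1.41 CPM in M0 and 0.437, 0.533 and 0.555 CPM with CaP microrods (log2 fold change -1.75, standard error 0.27, adjusted p = 0.0322). *Clec4a3*, a C-type lectin receptor, had 12.5, 12.1 and 15.3 CPM in M0 and 5.43, 5.33 and 4.67 CPM with CaP microrods (log2 fold change -1.36, standard error 0.21, adjusted p = 0.03199). *Pilrb1*, an activating paired immunoglobulin-like receptor, had 14.6, 13.6 and 16.6 CPM in M0 and 7.72, 7.26 and 6.38 CPM with CaP microrods (log2 fold change -1.06, standard error 0.18, adjusted p = 0.0496). In all 4 genes the CaP libraries lay below the M0 libraries, and *Pilrb1* had the smallest fold. *Clec4a3* and *Pilrb1* have close paralogs, and how their shared reads were split was set by the authors' quantification. Leaving out M0 replicate 1, M0 replicate 3, CaP replicate 2 or CaP replicate 3 ended each of these 4 calls, with adjusted p up to 0.124, 0.163, 0.205 and 0.258 in the same order.

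Of the 40 C-type lectin and paired receptors in the list 34 were tested, 2 fell and 1 rose by edgeR, and 20 had a negative log2 fold change (median -0.16). *Mrc1*, the mannose receptor, had 2.21, 1.19 and 2.23 against 0.374, 0.733 and 0.429 CPM, with groups that did not overlap, and was called by DESeq2 (adjusted p = 0.0105) and not by edgeR (log2 -2.02, adjusted p = 0.0714). *Cd209a*, of the DC-SIGN family, had 21.98, 16.5 and 20.5 against 14.6, 14.7 and 13.8 CPM (log2 -0.45, adjusted p = 0.209 from edgeR, 0.178 from DESeq2). *Itgal*, the alpha chain of LFA-1, had 3.76, 5.202 and 4.702 against 1.48, 2.06 and 1.97 CPM, called by DESeq2 (0.00281) but not by edgeR (0.0689). Macrophage markers as a whole had a median of -0.22 over 13 genes, of which *Aif1* alone was called by edgeR. Of the 13, 10 had a negative log2 fold change and 3 a positive one, and DESeq2 called 3 lower. In 6 of them all CaP libraries lay below all M0 libraries, as in 10.1% of all genes, and in 0 above. *Csf1r*, the receptor of the growth factor that sustains macrophages, had 124, 197 and 179.8 against 109, 206 and 197 CPM, with groups that overlapped (log2 0.03, adjusted p = 0.962), and *Lyz2*, for lysozyme, had 1435, 2046 and 2136 against 1632, 1827 and 1646 CPM (log2 -0.14, adjusted p = 0.706).

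Among myeloid transcription factors, *Maf*, of the resident macrophage state, had 1.52, 0.922 and 0.823 against 0.354, 0.1998 and 0.0757 CPM and was called by DESeq2 (0.0167) and not by edgeR (log2 -2.41, adjusted p = 0.06701). *Klf4*, another factor of this group, had 11.95, 9.02 and 12.1 against 6.84, 5.53 and 5.27 CPM (log2 -0.90, adjusted p = 0.111 from edgeR, 0.0183 from DESeq2). Of 32 such factors in the list 24 were tested, 16 had a negative log2 fold change and the median was -0.29.

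*Tgfbi*, for a matrix protein that is induced by TGF-β, had the second smallest p among the lowered genes, with 17.98, 18.8 and 17.98 CPM in M0 and 3.43, 6.66 and 5.62 CPM with CaP microrods (log2 fold change -1.83, standard error 0.24, adjusted p = 0.0165). The 3 M0 libraries were nearly equal, and the lowest CaP value was in replicate 1. Its call was lost without M0 replicate 1, M0 replicate 3 or CaP replicate 3 (adjusted p up to 0.0827). Of 26 TGF-β and BMP pathway genes 23 were tested and none was called by edgeR, while 19 had a negative log2 fold change, 4 a positive one, and the median was -0.31. DESeq2 called *Skil*, a repressor of SMAD signalling, with 143, 62.1 and 94.5 against 41.6, 42.4 and 27.5 CPM (0.00281 from DESeq2, log2 -1.43, adjusted p = 0.0906 from edgeR). *Tgfbr1*, a TGF-β receptor chain, had 2.21, 2.17 and 1.88 against 0.957, 0.999 and 0.984 CPM (log2 -1.12, adjusted p = 0.1498), and *Acvrl1*, a BMP receptor, was higher at 9.31, 17.3 and 17.98 against 21.1, 27.4 and 31.4 CPM (log2 0.86, adjusted p = 0.1498).

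Lowered genes of lipid and RNA metabolism were fewer. *Cyp4f18*, a fatty acid and leukotriene hydroxylase, had 28.4, 35.2 and 37.3 CPM in M0 and 16.8, 14.7 and 12.6 CPM with CaP microrods (log2 fold change -1.19, standard error 0.18, adjusted p = 0.0315). *Abca9*, an ABC transporter of the lipid-transporting subfamily, had 13.7, 11.9 and 11.3 CPM in M0 and 4.51, 6.53 and 4.62 CPM with CaP microrods (log2 fold change -1.27, standard error 0.22, adjusted p = 0.0485). *Zc3h12d*, an RNase of the family that degrades inflammatory mRNAs, had 46.4, 35.95 and 49.8 CPM in M0 and 20.1, 18.5 and 16.1 CPM with CaP microrods (log2 fold change -1.27, standard error 0.18, adjusted p = 0.0189). Groups were apart in all 3 genes, but each call ended without M0 replicate 1 or 3 or CaP replicate 2 or 3, with adjusted p up to 0.185, 0.257 and 0.148.

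The most abundant lowered transcript was *mt-Cytb*, the mitochondrially encoded cytochrome b of complex III, with 7196, 6176 and 5762 CPM in M0 and 3016, 3742 and 2642 CPM with CaP microrods (log2 fold change -1.03, standard error 0.16, adjusted p = 0.0322). It was the only one of the 15 mitochondrially encoded genes to be called. Of the 15, 10 had a negative log2 fold change (median -0.25), among them *mt-Nd4* with 581, 552 and 467 against 382, 416 and 312 CPM (log2 -0.53, adjusted p = 0.142). Nuclear genes of oxidative phosphorylation had a median of -0.02 over 47 genes with none called. The mitochondrial share of all counts was 1.48% to 2.18% in M0, 1.21% to 1.51% with CaP and 1.13% to 1.37% with SiO2 microrods, and its part in the fall of *mt-Cytb* was not tested. The call was lost without M0 replicate 1 or 3, CaP replicate 2 or 3 or any SiO2 library (adjusted p up to 0.171 without an M0 or CaP library).

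A further 5 lowered transcripts are not protein-coding in the annotation used. *Kcnq1ot1*, the imprinted antisense RNA of the *Kcnq1* locus, had 23.03, 20.4 and 26.4 CPM in M0 and 8.78, 9.79 and 10.1 CPM with CaP microrods (log2 fold change -1.28, standard error 0.18, adjusted p = 0.0174), with a narrow spread in either group. *B930095G15Rik*, which lies within an intron of another gene on the same strand, had 14.3, 10.01 and 12.1 CPM in M0 and 5.57, 6.06 and 5.42 CPM with CaP microrods (log2 fold change -1.11, standard error 0.19, adjusted p = 0.0485). *A130071D04Rik* (log2 -2.12, adjusted p = 0.0475) and *Gm45343* (log2 -2.42, adjusted p = 0.0494), of class TEC (transcribed, but not yet verified by experiment), and the intronic *Gm15513* (log2 -1.98, adjusted p = 0.0485) had M0 means between 1.55 and 2.07 CPM. Reads from such transcripts cannot be told from unspliced RNA of the host gene in a count per gene without strand.

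**Figure D3:**
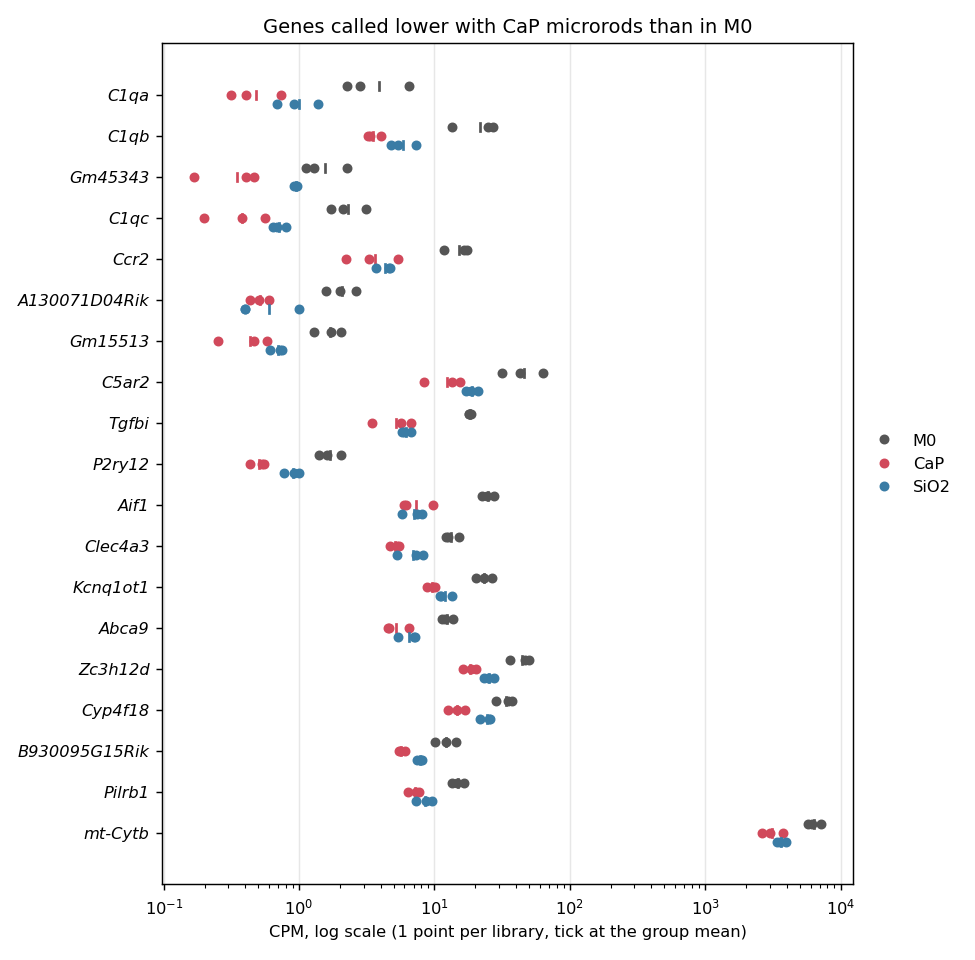
CPM on a log scale (horizontal axis) of the lowered genes reported here, ordered by log2 fold change, with 1 point per library and a tick at the mean of each group for M0 (grey), CaP (red) and SiO2 (blue). In each gene the 3 CaP points lie below the 3 M0 points, as for C1qb at 3.24 to 4.04 against 13.5 to 27.1 CPM.

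DESeq2's longer list was also read by transcript class. Of 197 TEC genes tested, 12 were called lower by DESeq2 and none higher (6.09% against 1.79% of all genes), and of 32 sense-intronic genes 5 were lower and none higher. Their median log2 fold changes were -0.29 and -0.36. Processed pseudogenes showed the opposite tilt, since only 21.8% of the 2852 tested had a negative log2 fold change (median 0.28), with 14 called higher and 1 lower by DESeq2 and none by edgeR. Of 10839 protein-coding genes DESeq2 called 258 lower and 244 higher, and 48.9% were negative. TEC and sense-intronic genes together took 0.0700% to 0.120% of counts in M0 and 0.0657% to 0.0950% with CaP, and processed pseudogenes 6.75% to 10.9% in M0 and 9.49% to 13.9% with CaP. Genes that DESeq2 called lower were also longer and poorer in GC than those it called higher, with median transcript lengths of 1927.5 and 1536 bases and median GC contents of 48.0% and 54.6%, against 1135 bases and 49.9% over all genes tested. The part of these shares in the calls was not tested.

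Some protein-coding genes were called lower by DESeq2 alone, and edgeR's adjusted p for them was above 0.05. *Notch2*, a receptor of the Notch pathway, had 798, 356 and 458 against 193, 205 and 158 CPM (log2 -1.53, adjusted p = 0.0639 from edgeR, 3.65e-04 from DESeq2). *Nlrc4*, the inflammasome sensor adaptor for bacterial flagellin, had 67.3, 30.9 and 58.9 against 19.5, 23.8 and 15.5 CPM (log2 -1.42, adjusted p = 0.0809 from edgeR, 0.00159 from DESeq2). *Srsf2*, a splicing factor, had 227, 108 and 200.3 against 73.2, 82.7 and 50.1 CPM (log2 -1.38, adjusted p = 0.0869 from edgeR, 0.00279 from DESeq2). In each of these genes M0 replicate 1 was the highest and M0 replicate 2 the lowest of the M0 libraries. The same held for *Per3*, a clock gene, at 9.53, 4.02 and 7.88 against 3.04, 2.797 and 2.09 CPM, *Bod1*, a chromosome biorientation factor, at 21.8, 10.7 and 20.1 against 8.36, 6.33 and 4.74 CPM and *Top2a*, the topoisomerase of dividing cells, at 537, 295 and 395 against 195, 222 and 155 CPM. *Pou4f1*, a POU-domain transcription factor, had 13.9, 7.84 and 14.3 against 4.804, 4.26 and 3.35 CPM and *Ms4a6c*, a macrophage membrane protein, 5.66, 3.36 and 6.46 against 2.14, 1.998 and 1.41 CPM (adjusted p = 0.0502 and 0.0757 from edgeR). *Arg1*, for arginase, had 9.93, 8.56 and 14.9 against 4.6999, 5.13 and 5.83 CPM (log2 -1.07, adjusted p = 0.126 from edgeR, 0.0286 from DESeq2), and *Abcg1*, a cholesterol exporter, 571, 268 and 391 against 223, 208 and 158 CPM (log2 -1.06, adjusted p = 0.125 from edgeR, 0.0311 from DESeq2).

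Growth programmes had few calls. Of 52 DNA replication and G1/S genes 34 had a negative log2 fold change (median -0.12), none was called by edgeR and DESeq2 called 2 lower, among them *Pole*, a replicative polymerase, at 12.6, 10.2 and 14.1 against 7.05, 8.33 and 6.58 CPM. Of 55 mitosis genes 36 were negative (median -0.07), none was called by edgeR and DESeq2 called 3 lower, *Top2a*, *Mki67* at 67.5, 40.9 and 50.2 against 29.5, 32.8 and 23.4 CPM and *Aspm* at 16.6, 19.6 and 14.3 against 11.3, 8.33 and 8.499 CPM. Ribosome biogenesis genes had a median of -0.10 over 39, cytosolic ribosomal proteins 0.04 over 63 and constitutive proteasome genes -0.13 over 27, and edgeR called none of them.

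On the raised side, the calcineurin inhibitor *Rcan1* was among the largest changes, with 4.67, 6.32 and 4.47 CPM in M0 and 34.2, 73.8 and 80.9 CPM with CaP microrods (log2 fold change 3.61, standard error 0.35, adjusted p = 0.003102). CaP replicate 1 had the lowest of the CaP values and was still far above every M0 library. The gene was called with each library left out (adjusted p at most 0.0477 without an M0 or CaP library). Of 20 calcineurin and NFAT feedback genes and targets 16 were tested, *Rcan1* alone was called by edgeR, 10 had a negative log2 fold change and the median was -0.10. *Egr2*, a target of NFAT, had 2.13, 3.29 and 2.94 against 2.89, 10.7 and 9.46 CPM, with overlapping groups (log2 1.47, adjusted p = 0.162 from edgeR, 0.0499 from DESeq2). *Tnfrsf9*, for the costimulatory receptor 4-1BB, had 7.097, 8.49 and 10.1 against 14.3, 18.2 and 24.5 CPM (log2 1.17, adjusted p = 0.077002 from edgeR, 0.00186 from DESeq2). None of 30 genes of calcium entry, stores and pumps was called by edgeR (median 0.04), and DESeq2 called only *Canx*, the calcium-binding chaperone calnexin, which was lower at 1782, 979 and 1502 against 736, 829.9 and 599 CPM.

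*Atp6v0d2*, the tissue-restricted d2 subunit of the vacuolar ATPase, had 0.534, 1.12 and 0.705 CPM in M0 and 12.3, 15.1 and 16.01 CPM with CaP microrods (log2 fold change 4.29, standard error 0.29, adjusted p = 6.06e-04) and was called with each library left out. Its paralog *Atp6v0d1*, the ubiquitous d1 subunit, had 43.4, 45.8 and 68.8 against 52.3, 106 and 109 CPM, with groups that overlapped (log2 0.77, adjusted p = 0.212). Of the other 17 V-ATPase genes tested none was called by edgeR, 16 had a positive log2 fold change (median 0.30), and DESeq2 called *Atp6v0a1* at 3.47, 4.54 and 4.702 against 6.18, 10.4 and 11.4 CPM. Of 48 tested lysosomal hydrolases and membrane proteins 2 rose, none fell and 38 were positive (median 0.29). *Gpnmb*, a lysosomal glycoprotein of loaded macrophages, had 65.4, 101 and 104 CPM in M0 and 176, 334 and 370.3 CPM with CaP microrods (log2 fold change 1.71, standard error 0.28, adjusted p = 0.0423). *Ctsk*, for cathepsin K, was at or below 3 counts in each M0 library and had 1.06, 0.932 and 0.706 CPM with CaP microrods, at least 4.28-fold higher against a floor of 3 counts per library (adjusted p = 0.0165). *Ctsh*, for cathepsin H, was lower at 54.5, 67.9 and 75.8 against 40.6, 41.96 and 38.4 CPM (log2 -0.71, adjusted p = 0.103 from edgeR, 0.01299 from DESeq2). *Lgals3*, for galectin-3, which binds damaged endomembranes, had 571, 1049 and 831 CPM in M0 and 1711, 1851 and 2212 CPM with CaP microrods (log2 fold change 1.24, standard error 0.21, adjusted p = 0.0475). *Ctsk* was not called without M0 replicate 1 or CaP replicate 2 (adjusted p up to 0.244). With a library left out, *Gpnmb* and *Lgals3* were called only without M0 replicate 2 or CaP replicate 1. Their adjusted p rose to 0.205 and 0.257 without another M0 or CaP library.

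Genes of 3 protease inhibitors rose. *Serpinb1a*, an inhibitor of neutrophil serine proteases, had 0.293, 0.395 and 0.4702 CPM in M0 and 9.05, 8.99 and 9.56 CPM with CaP microrods (log2 fold change 4.70, standard error 0.28, adjusted p = 3.02e-04), the largest fold among the called genes. *Spink5*, a Kazal-type inhibitor of kallikreins, had 7.26, 6.91 and 6.82 CPM in M0 and 32.4, 27.6 and 30.1 CPM with CaP microrods (log2 fold change 2.10, standard error 0.16, adjusted p = 0.00105). *Cst7*, for cystatin F, a regulator of lysosomal cathepsins, had 3.12, 5.27 and 5.64 CPM in M0 and 15.3, 15.1 and 15.3 CPM with CaP microrods (log2 fold change 1.76, standard error 0.24, adjusted p = 0.0174). The CaP libraries of *Cst7* were nearly equal. *Serpinb1a* and *Spink5* were called with each library left out. *Cst7* was not called without M0 replicate 1, CaP replicate 2, CaP replicate 3 or SiO2 replicate 1 or 3 (adjusted p up to 0.103 without an M0 or CaP library). *Serpinb1a* has close paralogs, whose shared reads were split by the authors' quantification.

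Among CC chemokines 3 genes rose. *Ccl3*, for MIP-1α, had 104, 98.5 and 116 CPM in M0 and 334, 306 and 272 CPM with CaP microrods (log2 fold change 1.52, standard error 0.14, adjusted p = 0.00278), and its neighbour on chromosome 11, *Ccl4*, for MIP-1β, had 113, 203 and 152 CPM in M0 and 636, 538 and 513 CPM with CaP microrods (log2 fold change 1.85, standard error 0.21, adjusted p = 0.00716). *Ccl7*, for MCP-3, a ligand of Ccr2, had 7.39, 6.58 and 10.7 CPM in M0 and 37.9, 34.2 and 21.99 CPM with CaP microrods (log2 fold change 1.96, standard error 0.26, adjusted p = 0.0165), lowest in CaP replicate 3. Of 8 CC chemokines tested 3 rose and none fell (median 0.61), and *Ccl6* was lower at 7.36, 7.11 and 7.64 against 5.59, 3.46 and 3.63 CPM (log2 -0.77, adjusted p = 0.167) while *Ccl9* was higher at 253, 338 and 298 against 442, 398 and 394 CPM (log2 0.47, adjusted p = 0.147). *Cxcl2*, a neutrophil attractant, had 0.774, 0.461 and 0.9404 against 2.204, 1.998 and 2.799 CPM (log2 1.72, adjusted p = 0.0502 from edgeR, 0.00335 from DESeq2). *Ccl3* and *Ccl4* were called with each library left out, and *Ccl7* was not called without M0 replicate 1 or CaP replicate 2 (adjusted p up to 0.114).

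Other secreted and feedback regulators rose with them. *Csf1*, the macrophage growth factor, had 0.507, 0.263 and 0.4702 CPM in M0 and 3.22, 5.59 and 6.83 CPM with CaP microrods (log2 fold change 3.56, standard error 0.44, adjusted p = 0.0105), whereas its receptor gene *Csf1r*, given above, was not called. *Il1rn*, for the interleukin-1 receptor antagonist, had 10.5, 13.2 and 15.2 CPM in M0 and 44.6, 85.6 and 73.5 CPM with CaP microrods (log2 fold change 2.40, standard error 0.25, adjusted p = 0.00595). *Ier3*, an NF-kB-induced early gene, had 5.34, 18.4 and 7.64 CPM in M0 and 65.6, 39.9 and 74.1 CPM with CaP microrods (log2 fold change 2.53, standard error 0.42, adjusted p = 0.0453). *Rgs1*, which shortens signalling by chemoattractant receptors, had 20.8, 30.4 and 25.6 CPM in M0 and 111, 99.2 and 92.3 CPM with CaP microrods (log2 fold change 1.98, standard error 0.17, adjusted p = 0.00228). *Gdf15*, a stress cytokine, had 1.76, 2.04 and 2.12 CPM in M0 and 8.57, 6.06 and 7.89 CPM with CaP microrods (log2 fold change 1.97, standard error 0.22, adjusted p = 0.00716). *Rgs1* was called with each library left out, and *Csf1*, *Il1rn* and *Gdf15* with each but M0 replicate 1 (adjusted p 0.107, 0.0518 and 0.0781 at most). *Ier3*, whose M0 replicate 2 was high, was called only without M0 replicate 2 or CaP replicate 1 (adjusted p up to 0.212 without another M0 or CaP library). Of 29 LPS and NF-kB responsive genes tested *Ier3* and *Il1rn* were called, 23 were positive and the median was 0.53. Of 27 AP-1 and EGR immediate early genes none was called by edgeR, and DESeq2 called 4 higher, with *Junb* at 23.5, 69.8 and 31.3 against 72.2, 237 and 389 CPM (log2 2.49, adjusted p = 0.114 from edgeR) and *Dusp4* at 7.44, 10.5 and 7.17 against 15.2, 31.7 and 43.98 CPM (log2 1.85, adjusted p = 0.0714 from edgeR).

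Stress and hypoxia-type genes added a further group. *Ddit3*, for the stress factor CHOP, had 11.6, 17.1 and 14.7 CPM in M0 and 51.2, 39.6 and 50.7 CPM with CaP microrods (log2 fold change 1.72, standard error 0.19, adjusted p = 0.00716) and was called with each library left out. *Ero1l* (now *Ero1a*), an oxidase of the endoplasmic reticulum, had 168, 158 and 199.8 CPM in M0 and 329.9, 426 and 463 CPM with CaP microrods (log2 fold change 1.21, standard error 0.17, adjusted p = 0.0174). *Adm*, for the vasodilator adrenomedullin, had 10.4, 18.9 and 9.76 CPM in M0 and 47.2, 38.3 and 57.8 CPM with CaP microrods (log2 fold change 1.87, standard error 0.29, adjusted p = 0.03199). Of 35 unfolded protein and integrated stress response genes 2 rose (median 0.21) and DESeq2 called 5 higher, among them *Trib3* at 7.12, 17.9 and 12.8 against 25.4, 44.96 and 61.1 CPM and *Ppp1r15a* at 16.97, 28.4 and 22.7 against 35.5, 51.9 and 64.1 CPM. Of 40 HIF-1 targets and glycolysis genes 2 rose, 35 were positive and the median was 0.43. The 2 were *Adm* and *Ero1l*, and *Ero1l* is also counted in the list before. None of 28 NRF2-responsive redox genes was called by edgeR (median 0.18), where *Hmox1*, for heme oxygenase, had 54.99, 111 and 82.3 against 157, 183 and 209 CPM (log2 1.15, adjusted p = 0.0842 from edgeR, 0.00338 from DESeq2). Without M0 replicate 1 or 3 or CaP replicate 2 or 3 *Ero1l* and *Adm* were not called (adjusted p up to 0.111 and 0.186).

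Matrix genes went both ways, with *Tgfbi* lower and *Spp1* and *Mmp12* higher. *Spp1*, for osteopontin, was the most abundant raised gene, with 4414, 5048 and 5466 CPM in M0 and 9623, 9821 and 9111 CPM with CaP microrods (log2 fold change 0.94, standard error 0.13, adjusted p = 0.0174). *Mmp12*, for macrophage elastase, had 1.07, 1.71 and 1.41 CPM in M0 and 5.22, 4.13 and 4.82 CPM with CaP microrods (log2 fold change 1.83, standard error 0.28, adjusted p = 0.0307). Of 15 matrix genes tested these 3 were called. Both rises were lost without M0 replicate 1 or 3 or CaP replicate 2 or 3, with adjusted p up to 0.0857 and 0.233.

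Receptors and adaptors were also among the raised genes. *Lilr4b* and *Lilrb4a* encode immunoglobulin-like receptors and lie next to each other on chromosome 10. *Lilr4b* had 24.7, 27.9 and 29.6 against 89.96, 90.4 and 90.6 CPM (log2 fold change 1.73, standard error 0.14, adjusted p = 0.00128). *Lilrb4a* had 5.12, 7.84 and 6.7001 against 12.9, 15.8 and 16.7 CPM (log2 fold change 1.23, standard error 0.21, adjusted p = 0.0475). The antisense transcript *Gm40645* beside them rose too (log2 2.13, adjusted p = 0.0105). These genes overlap or are near-identical in sequence, so their shares of the reads are uncertain. *Hcar2*, the niacin receptor, had 3.602, 6.78 and 6.11 CPM in M0 and 17.6, 24.3 and 29.03 CPM with CaP microrods (log2 fold change 2.15, standard error 0.29, adjusted p = 0.0166). *Lat*, a signalling adaptor, had 0.587, 1.65 and 1.18 CPM in M0 and 6.55, 5.66 and 7.67 CPM with CaP microrods (log2 fold change 2.71, standard error 0.38, adjusted p = 0.0189), the only call among 20 Fc receptor and proximal signalling genes. *Lims2*, a focal adhesion protein, had 7.44, 7.57 and 5.41 CPM in M0 and 25.97, 28.6 and 34.8 CPM with CaP microrods (log2 fold change 2.11, standard error 0.20, adjusted p = 0.003102). *Igf2bp2*, an mRNA-binding protein, had 3.79, 4.81 and 2.704 against 10.9, 17.8 and 20.3 CPM (log2 2.08, adjusted p = 0.0189), and *Cda*, for cytidine deaminase, 1.41, 2.24 and 0.705 against 5.99, 5.26 and 6.002 CPM (log2 1.92, adjusted p = 0.0307). *Ephx1*, for microsomal epoxide hydrolase, had 17.05, 17.1 and 21.6 against 49.6, 55.9 and 61.9 CPM (log2 1.60, adjusted p = 0.00716). *Lilr4b* and *Lims2* were called with each library left out, *Ephx1* and *Gm40645* with each but M0 replicate 1 (adjusted p 0.0615 and 0.0851 at most), and *Lilrb4a*, *Hcar2*, *Lat*, *Igf2bp2* and *Cda* were not called without M0 replicate 1 or 3 or CaP replicate 2 or 3 (adjusted p up to 0.257, 0.0827, 0.114, 0.1402 and 0.186).

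**Figure D4:**
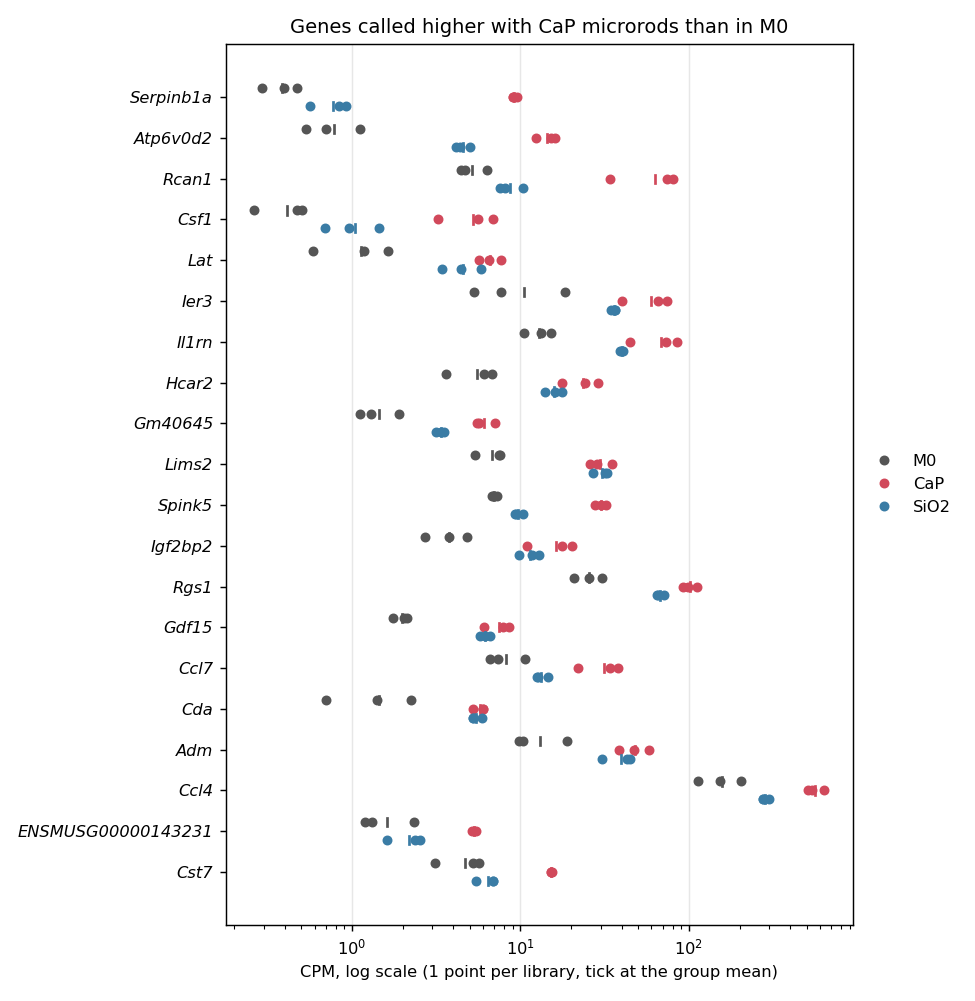
CPM on a log scale (horizontal axis) of the 20 raised genes with the largest log2 fold change among those with at least 5 CPM in one group, with 1 point per library and a tick at the mean of each group for M0 (grey), CaP (red) and SiO2 (blue). For Serpinb1a, Rcan1 and Spink5 the SiO2 points lie near M0, and for Lims2 and Cda they lie with CaP.

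Several other programmes held no call by edgeR, or only calls already given above. Of 33 interferon-stimulated genes none was called by either test (median 0.05), nor was any of 8 MHC class II presentation genes (median 0.15). Of 28 cholesterol synthesis and uptake genes 23 were positive (median 0.33) and DESeq2 called 2 higher, *Mvk* at 4.14, 7.84 and 5.41 against 11.1, 11.4 and 12.6 CPM and *Mvd* at 8.51, 21.8 and 15.5 against 30.1, 39.8 and 44.9 CPM. Of 18 Toll-like receptors and adaptors DESeq2 called *Irak2*, a kinase of the signalling complex, higher at 4.59, 6.26 and 5.52 against 7.74, 16.9 and 18.5 CPM, and 3 lower, among them *Tirap*, an adaptor, at 32.3, 32.5 and 38.7 against 19.2, 20.9 and 19.4 CPM and *Ly86*, for MD-1, at 5.34, 6.12 and 5.41 against 3.06, 3.13 and 2.27 CPM. Alveolar macrophage identity genes had a median of 0.53 over 18, with *Atp6v0d2* and *Ctsk* called higher and none lower by edgeR, and DESeq2 called 4 in either direction. A count of 0 calls in a list shows only that none passed the test, and not that its genes were level.

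**Figure D5:**
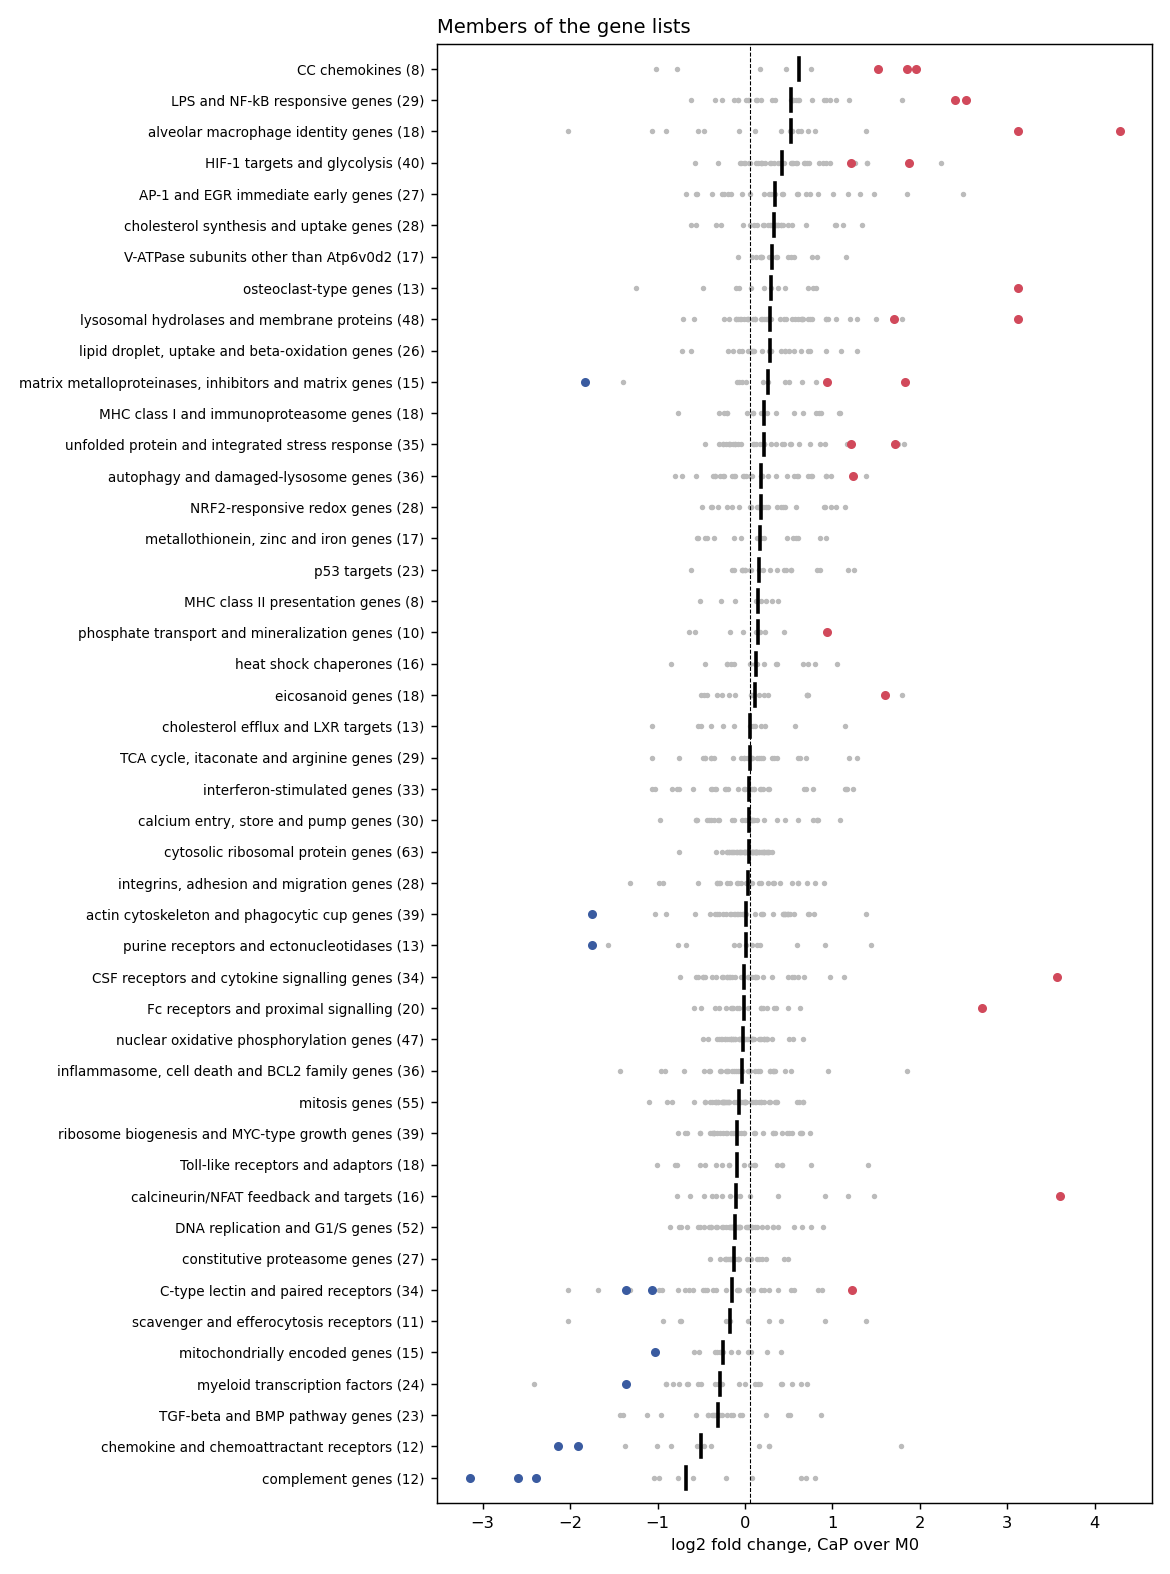
Log2 fold change of CaP over M0 (horizontal axis) for the tested members of each pathway list with at least 5 of them (number in brackets), with genes called higher in red, called lower in blue and others in grey, a black bar at each list's median and a dashed line at the median of all genes. The medians run from -0.68 for complement genes to 0.61 for CC chemokines.

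Silica rods of the same coating, matched by mass and not by number of rods, served as the particle control. The comparison of CaP with SiO2 called 4 genes (0.0241% of those tested) and that of SiO2 with M0 called 10 (0.0602%), and both comparisons with M0 share the same M0 libraries. Of these 10 genes, 9 were also called between CaP and M0. *Serpinb1a* had 0.843, 0.9204 and 0.562 CPM with SiO2 microrods and was higher with CaP by a log2 difference of 3.61 (standard error 0.25, adjusted p = 9.63e-04). *Rcan1* had 8.08, 10.4 and 7.55 CPM and was higher with CaP by 2.87 (standard error 0.33, adjusted p = 0.0388). *Spink5* had 9.37, 10.4 and 9.28 CPM and was higher with CaP by 1.64 (standard error 0.16, adjusted p = 0.01097). *Mmp12* had 21.2, 13.96 and 17.2 CPM and was the 1 gene lower with CaP than with SiO2, by a log2 difference of -1.87 (standard error 0.23, adjusted p = 0.0478). For *Atp6v0d2*, with 5.06, 4.37 and 4.18 CPM, and *Ccl3*, with 145, 142 and 155 CPM, the differences of 1.67 and 1.04 did not pass the threshold (adjusted p = 0.0946 and 0.0785). Some lists had SiO2 medians over M0 near or beyond those with CaP. These were 0.38 for the other V-ATPase subunits, 0.32 for lysosomal genes and -0.47 for mitochondrially encoded genes. Myeloid transcription factors had -0.34 and TGF-β and BMP genes -0.28. Medians were nearer to zero than with CaP for complement genes (-0.39), CC chemokines (0.39) and LPS and NF-kB responsive genes (0.16). Mean *Gpnmb* was 317 CPM and *Lgals3* 1774 CPM with SiO2.

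None of the 20 lowered genes differed between the rods by the test. *C1qb* had 5.404, 7.29 and 4.78 CPM with SiO2 microrods, a log2 fold change over M0 of -1.90 (adjusted p = 0.0723), and a log2 difference between CaP and SiO2 of -0.70 (standard error 0.30). *Aif1* had 5.75, 8.13 and 7.47 CPM and was the 1 gene called lower with SiO2 than in M0 (log2 fold change -1.80, adjusted p = 0.04897), with a difference between rods of 0.06 (standard error 0.24). *Tgfbi* had 5.8002, 5.98 and 6.67 CPM (log2 fold change over M0 -1.57, adjusted p = 0.0723, difference between rods -0.26 with standard error 0.25). *Cyp4f18*, with 25.7, 21.8 and 25.4 CPM, differed by -0.73 (standard error 0.18) and *Gm45343*, with 0.942, 0.9204 and 0.964 CPM, by -1.59 (standard error 0.45), the largest among the 20. These standard errors leave room for differences between the rods, and a p above the threshold does not show that they act alike.

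Polarised cells place the levels of these genes, with CPM from 1 scaling of all 15 libraries. Mean *C1qb* was 21.5 CPM in M0, 3.49 with CaP, 9.39 in M1 and 82.4 in M2. *C5ar2* was 45.5 in M0, 12.3 with CaP, 6.26 in M1 and 12.6 in M2, below M0 in all of them. *Clec4a3* was 13.1 in M0 and 5.07 with CaP but 16.9 in M1 and 67.5 in M2. On the raised side, *Rcan1* was 5.75 CPM in M1 and 4.73 in M2 against 62.2 with CaP, and *Serpinb1a* 0.113 and 1.72 against 9.08. *Ccl4* was 1509.5 in M1 and *Ccl7* 371, well above their CaP means of 555 and 30.96 CPM, and *Lilr4b* was 85.1 in M1 and 89.1 with CaP. These levels are given as a description, without a test.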

How the data were processed

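RNA of MH-S cells was sequenced by the authors from Smart-seq2 libraries as paired-end reads, aligned with STAR and quantified with Salmon in the nf-core/rnaseq pipeline on the Ensembl annotation. The authors deposited 1 table of whole-number counts, not normalized, for 78317 identifiers in 15 libraries. All columns were mapped to samples by name (0 unmapped). Symbols for 51487 identifiers, transcript length and GC content came from another annotation release, and promoters from RefSeq (GRCm38.p6). Salmon estimates counts, so the table may hold rounded values.

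Counts were filtered with filterByExpr, scaled by TMM and fitted with edgeR 4.0.16 (the quasi-likelihood method of edgeR 4) in R 4.3.3 to the 9 M0, CaP and SiO2 libraries, without a block for replicate number. The labels do not say whether the numbers pair wells. Between M0 and CaP libraries of number 1, 2 and 3, deviations from the group means correlated at 0.53, -0.26 and -0.07. Levels are CPM on the scaled library size. DESeq2 1.42.0 and the settings listed at the end were alternatives, and the fit was tested on simulated data.

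Named genes are the calls that lowered a gene, the 20 largest rises with at least 5 CPM in one group, members of the gene lists that were called or had the list's smallest p, and genes called by DESeq2 alone with the largest changes. The 54 lists (1439 of 1442 entries matched), the comparison and the motifs were chosen with earlier results of these data known. In groups of 3, the smallest p of an exact permutation test (two-sided) is 0.1. Libraries hold 8459643 to 50729211 counts, of amplified cDNA without molecular identifiers, so floors cover counting error only. M1 and M2 enter only as levels. Not every lowered gene is reported here by name.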

Additional observations from a re-analysis of the deposited data

Results flagged for a closer look

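In 4 genes the effect of CaP over M0 differed from that of SiO2 over M0, by edgeR's test of the difference itself. The log2 difference of CaP minus SiO2 was 3.61 for *Serpinb1a* (9.199 ± 0.313 against 0.775 ± 0.188 CPM, SD, n = 3, adjusted p = 9.63e-04 from edgeR), with all 3 CaP libraries above all SiO2 libraries. It was 2.87 for *Rcan1* (62.97 ± 25.1 against 8.66 ± 1.49 CPM, adjusted p = 0.0388 from edgeR) and 1.64 for *Spink5* (30.05 ± 2.39 against 9.67 ± 0.598 CPM, adjusted p = 0.01097 from edgeR). For *Mmp12* it was -1.87 (4.72 ± 0.551 against 17.4 ± 3.61 CPM, adjusted p = 0.0478 from edgeR), the 1 gene of the 4 that rose more with SiO2 microrods. Groups of 3 libraries are too small to be screened for outlying samples.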

How the results depend on the processing

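The counts of called genes moved with most choices. Against 68 calls (48 higher, 20 lower), DESeq2 called 590 (283 and 307), the absence of a filter gave 178 (102 and 76), all 15 libraries 109 (71 and 38), GC and length offsets 100 (70 and 30), the legacy quasi-likelihood 49 (38 and 11), counts thinned to the smallest library 26 (20 and 6) and only the 6 compared libraries 7 (7 and 0, with 2110 genes at an unadjusted p under 0.05). A replicate block gave 28 (26 and 2), and with GC and length offsets 41 (31 and 10). The labels do not say whether the replicate numbers pair the wells. DESeq2's size factors (73), at least 10 counts in every library (77), an absolute log2 fold change above 1 (66) and no fold limit (68) stayed within 1.5 times. Without 1 library the count ran from 13 (without M0 replicate 1) to 743 (without CaP replicate 1), with 12 to 528 genes higher and 1 to 219 lower. The 68 genes kept their sign under each setting that tested them, 65 after thinning and 53 with at least 10 counts in every library. Since their CaP and M0 libraries do not overlap, a change of sign was hardly possible, so this adds no support.

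Few named genes changed sign, and none of these was called. *Pecam1* (-0.09) was 0.0557 with DESeq2, 0.0617 with the replicate block, 0.0082 with the legacy quasi-likelihood, 0.15 with offsets and block, and -0.42 to 0.23 without 1 library. *Pparg* (-0.07) was 0.0328 with GC and length offsets, 0.0372 with the block added and -0.55 to 0.33 without 1 library. *Csf1r* (0.03) was -0.16 with offsets, -0.17 with the block added and -0.17 to 0.25 without 1 library. *Adgre1* (-0.20) ran from -0.45 to 0.0940 without 1 library, positive only without CaP replicate 1. The smallest library limits genes of few counts, and the cause of the moves in these counts was not tested.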

Other observations

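Of the genes that neither test called, 6 had an absolute log2 fold change above 4, a limit chosen after seeing the data. *Tspan33* had 483, 1.71 and 0.4702 CPM in M0 and 1.07 to 3.49 with CaP. *Zfp12* had 690.3, 1.33 and 1.26 CPM with CaP and 0.856 to 1.63 in M0. The noncoding *A830008E24Rik* had 200.0, 5.66 and 4.23 CPM in M0, 3.33, 2.46 and 2.37 with CaP and 252, 3.83 and 183 with SiO2 microrods. Their adjusted p from edgeR was 0.154, 0.147 and 0.195.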
